A study of Mus musculus with 24 samples.

Results

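The genes described here are Nfe2l2, which encodes the transcription factor NRF2, Keap1, which encodes its repressor, and 8 genes of the antioxidant response: Slc7a11, Gclc, Gclm, Txnrd1, Srxn1, Hmox1, Nqo1 and Sod2. They were chosen by name as the NRF2 system, with earlier results of these data known, and no threshold on their values was used. They make up 10 of the 55291 gene names counted in each library, and all 10 were among the 16258 genes with enough reads to be tested.

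Pulmonary fibroblasts from the lungs of 4- to 8-week-old mice gave 24 RNA-seq libraries, with 3 per condition in 8 conditions. The cells came from wild type (WT) C57BL/6 mice or from TLR4-/- mice on the same background, which lack the Toll-like receptor that senses bacterial lipopolysaccharide and several proteins released from damaged cells. At passages 3 to 6, after a night in reduced serum medium, they received PBS, 1 μg/mL recombinant mouse cold-inducible RNA-binding protein (rmCIRP), rmTGF-β1 (the mouse growth factor TGF-β1, also recombinant) at 2 ng/mL, or rmCIRP+rmTGF-β1, each for 24 h. By the study's account, each group of cells came from a pool of 3 to 4 lungs, and sequencing used 3 samples for each group with 3 repeats each. Nothing in the labels ties the 3 libraries of a condition to separate animals or cultures. The p-values thus measure the spread between these libraries, which may be technical. The comparisons asked whether rmCIRP changed these genes, whether TGF-β1 altered that, and whether the response was present in the libraries labelled TLR4-/-.

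In resting cells KEAP1 binds NRF2 and hands it to a ubiquitin ligase for destruction. When oxidants or electrophiles modify KEAP1, NRF2 accumulates, pairs with small MAF proteins and binds antioxidant response elements in the promoters and enhancers of its targets. The targets import cystine and make glutathione (Slc7a11, Gclc, Gclm), keep thioredoxin and peroxiredoxins reduced (Txnrd1, Srxn1), degrade heme (Hmox1) and reduce quinones (Nqo1). Sod2 encodes the mitochondrial superoxide dismutase and is also a well-known target of NF-κB. Much of NRF2's control lies in the stability of the protein, which counts of mRNA do not measure.

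Promoter stretches were searched for the core of the antioxidant response element and for motifs of other factors known to act on such genes, and those upstream of the start site that held a match are shown to place the genes beside the values that follow. Of the 10 genes, 8 had promoter windows in the RefSeq table used (10 windows, from 250 bases before to 50 bases after the start site, mouse build GRCm38.p6). For the count files the submitters' notes name the build NCBIM37, which was not checked against the gene names. The motifs, sought on both strands, were TGACNNNGC (the core of the antioxidant response element, in 12.4% of all 32851 promoter windows), TGANTCA (an AP-1 site, in 7.81%), TGATGNAA (the amino acid response element bound by ATF4, in 3.97%) and the NF-κB motif (in 8.46%). A match is a string of letters and not a site shown to be bound. Capitals mark the matches in these upstream stretches, each given 5′ to 3′ on the gene's own strand.
Srxn1, 2 AP-1 matches, chr2:152105414-152105523, plus strand: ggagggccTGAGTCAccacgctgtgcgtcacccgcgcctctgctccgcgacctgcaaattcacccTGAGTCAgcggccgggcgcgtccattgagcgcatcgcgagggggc
Slc7a11, 2 matches to TGATGNAA, 1 on each strand, chr3:50443614-50443713, minus strand: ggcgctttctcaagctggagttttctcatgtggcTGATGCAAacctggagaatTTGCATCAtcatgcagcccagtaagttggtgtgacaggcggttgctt
Txnrd1, 1 reverse match to TGACNNNGC in 1 of its 3 windows, chr10:82859096-82859145, plus strand: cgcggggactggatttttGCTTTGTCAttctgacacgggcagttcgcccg
Gclm, 1 reverse match to TGACNNNGC, chr3:122245407-122245456, plus strand: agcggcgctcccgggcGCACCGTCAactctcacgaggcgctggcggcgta
Nfe2l2, 1 match to TGACNNNGC, chr2:75704864-75704913, minus strand: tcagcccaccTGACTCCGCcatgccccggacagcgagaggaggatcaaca
Sod2, 1 match to the NF-κB motif, chr17:13007729-13007788, plus strand: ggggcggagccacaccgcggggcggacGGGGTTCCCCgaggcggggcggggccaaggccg

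In Srxn1 another match to TGACNNNGC lay past the start site and is not printed. The windows of Nqo1 and Keap1 held none of these motifs, and Hmox1 and Gclc had no window. Other forms of the antioxidant response element and bases outside the windows were not searched, so that no match does not mean no element.

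Each library held between 29853346 and 39664606 reads assigned to genes. Tlr4 was checked first as the deleted gene. Its normalized mRNA counts were 718, 802 and 758 in WT libraries with PBS and 927, 892 and 891 in libraries labelled TLR4-/- with PBS, higher in the latter by 0.25 log2 (adjusted p = 0.00123). The reads of the whole gene are counted, so that they do not check for a deletion of a part, and the genotype is given throughout as labelled. All 10 fibroblast markers had a mean above 10 normalized counts in every condition, and so did all 13 macrophage markers, in WT libraries as well. Which cells of the cultures gave the changes described below was not tested. The summed level of 13 macrophage markers (Lyz2, Adgre1, Csf1r and others) was 90889.5 to 99113 in WT libraries with PBS. In libraries labelled TLR4-/- with PBS it was 345854 to 394752, and all 13 were higher in every library there than in WT. Lyz2 alone held 286902 of the 375427 normalized counts summed in library 3 labelled TLR4-/- with rmTGF-β1. Such markers move with genotype, and in bulk RNA fewer cells of a type and less RNA per cell cannot be told apart. Of 7 epithelial markers, at least 4 had a mean under 10 normalized counts in every condition, and all 5 T and B cell markers did.

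One library stood apart. Library 3 labelled TLR4-/- with rmCIRP+rmTGF-β1 held 110238 normalized counts of Hmox1, against 45206 and 52882 in libraries 1 and 2. It held 2919 of Slc7a11, against 1212 and 1508, and 7547 of Srxn1, against 4018 and 4710. At a cut-off chosen after seeing these values, 8 of the 10 members were at least 25% higher in it than the mean of the other libraries of its condition, against 13.4% of all genes tested, and only Keap1 (ratio 1.03) and Nqo1 (ratio 1.17) were not. Library 3 labelled TLR4-/- with rmTGF-β1 was higher to a smaller degree: 3 members passed that cut-off, against 9.47% of all genes, namely Slc7a11 (ratio 1.69), Srxn1 (ratio 1.27) and Hmox1 (ratio 1.26). Over all genes, the chi-square per degree of freedom between library 3 and libraries 1 and 2 with rmCIRP+rmTGF-β1 was 47.1 and 32.4, where the median over 24 pairs of replicates was 4.81. Marker levels moved in it as well. The summed level of 5 endothelial markers was 1436 against 906 and 768 in libraries 1 and 2, with Pecam1 and Cdh5 at ratios of 3.30 and 2.66. That of the macrophage markers was 431866 against 377933 and 345203. The fibroblast markers summed to 696437 against 828308 and 793431, but singly they went both ways. Col1a1 (ratio 0.726), Col1a2 (0.811), Fn1 (0.835), Pdgfrb (0.947) and Thy1 (0.959) were lower. Lum (1.392), Pdgfra (1.385), Col3a1 (1.175), Dcn (1.10) and Vim (1.079) were higher. The part of all these markers in the result was not tested. The comparisons, orders of levels and correlations between members that either library enters are given with and without both.

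**Figure D1:**
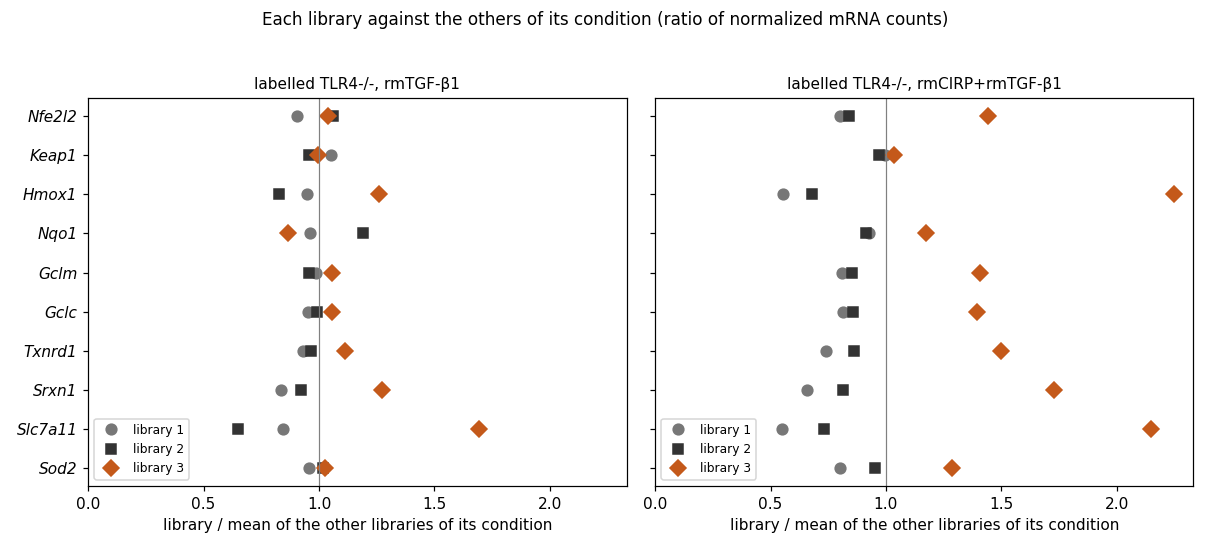
Ratio of normalized mRNA counts in each library to the mean of the other libraries of its condition (x axis, linear) for the 10 genes, in the libraries labelled TLR4-/- with rmTGF-β1 (left) and rmCIRP+rmTGF-β1 (right); the vertical line marks a ratio of 1. Library 3 (diamonds) with rmCIRP+rmTGF-β1 lies highest for every gene, with a ratio of 2.25 for Hmox1 and 2.15 for Slc7a11.

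In WT libraries, rmCIRP raised 8 of the 10 genes over PBS and lowered 0. By comparison, 19.8% of the genes tested rose and 24.1% fell in that comparison. The median change of the members was 0.52 log2, and that of all genes tested was -0.022 log2. The largest rises were those of Slc7a11 and Sod2, followed by Hmox1, Txnrd1, Srxn1, Nfe2l2, Gclc and Keap1, while Gclm and Nqo1 did not pass an adjusted p of 0.1. Levels are normalized mRNA counts, that is counts divided by the size factor of the library, in the order of libraries 1, 2 and 3.

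**Figure D2:**
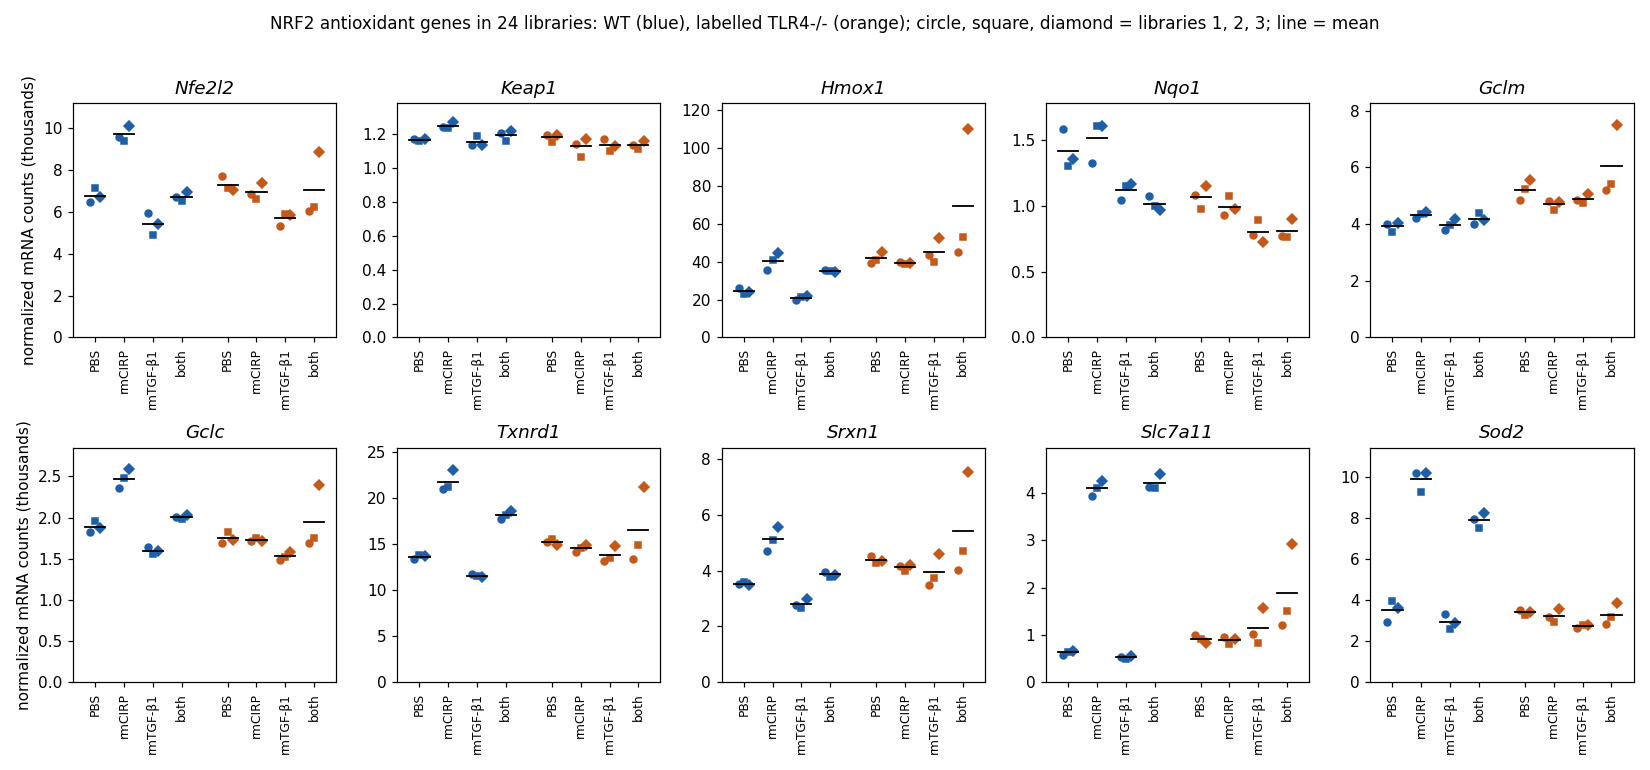
Normalized mRNA counts (y axis, linear from 0, scaled for each gene) of the 10 genes in the 24 libraries, with WT in blue and libraries labelled TLR4-/- in orange, symbols for libraries 1 to 3 and a line at the mean. In WT cells, Slc7a11 and Sod2 separate rmCIRP and rmCIRP+rmTGF-β1 from PBS and rmTGF-β1, and in libraries labelled TLR4-/- library 3 with both proteins lies above the others of its condition.

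Slc7a11 encodes xCT, the transporter that exchanges glutamate for the cystine needed to make glutathione. Its normalized counts were 582, 641 and 666 in WT libraries with PBS and 3941, 4104 and 4249 with rmCIRP. The groups lay far apart, and the ratio of their means was 6.51 (log2 fold 2.70 ± 0.23 SE, adjusted p = 2.55e-09). rmTGF-β1 alone gave 530, 495 and 556, and both proteins gave 4117, 4108 and 4397. The rise over rmTGF-β1 alone was thus as separated (log2 fold 2.99 ± 0.23, adjusted p = 6.89e-10). Slc3a2, which encodes the heavy chain that carries xCT to the membrane, rose with rmCIRP by 0.33 log2 (adjusted p = 0.000328).

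The first step of glutathione synthesis is catalysed by an enzyme of a catalytic subunit (Gclc) and a modifier subunit (Gclm), and they differed. Gclc was 1827, 1953 and 1870 with PBS and 2355, 2482 and 2584 with rmCIRP, without overlap (log2 fold 0.39 ± 0.080, adjusted p = 0.000519). Gclm was 3987, 3726 and 4046 with PBS and 4218, 4349 and 4440 with rmCIRP. Its groups did not overlap either, but the difference of 0.14 ± 0.087 log2 did not pass (adjusted p = 0.222, 95% interval -0.031 to 0.31). It passed when the fit held only the 6 libraries compared (adjusted p = 0.0064), and when both libraries that stand apart were left out (adjusted p = 0.0167). Over rmTGF-β1 alone, Gclc rose with rmCIRP+rmTGF-β1 by 0.32 log2 (adjusted p = 0.00334), from 1644, 1558 and 1598 to 2009, 1979 and 2033. Gclm differed by 0.063 log2 there (adjusted p = 0.621).

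Of the thioredoxin arm, Txnrd1 encodes the cytosolic thioredoxin reductase and Srxn1 the sulfiredoxin that repairs overoxidized peroxiredoxins. Txnrd1 was 13333, 13785 and 13678 with PBS and 20913, 21156 and 22978 with rmCIRP (log2 fold 0.67 ± 0.097, adjusted p = 1.00e-05). Srxn1 was 3539, 3590 and 3482 with PBS and 4699, 5102 and 5560 with rmCIRP (log2 fold 0.53 ± 0.14, adjusted p = 0.00458). In neither gene did the groups overlap. With rmTGF-β1 already present, rmCIRP raised Txnrd1 from 11763, 11472 and 11388 to 17671, 18140 and 18577 (log2 fold 0.65, adjusted p = 1.68e-05). It raised Srxn1 from 2776, 2673 and 2984 to 3951, 3788 and 3852 (log2 fold 0.45, adjusted p = 0.0150). Both genes with both proteins were thus above rmTGF-β1 alone in every library.

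Hmox1 encodes the inducible heme oxygenase and Nqo1 a quinone reductase often used as a readout of NRF2 activity, and they did not move alike. Hmox1 was 26068, 22873 and 24250 with PBS and 35863, 41046 and 44505 with rmCIRP, without overlap (log2 fold 0.72 ± 0.19, adjusted p = 0.00499). rmTGF-β1 alone gave 19735, 21165 and 21974, and its combination with rmCIRP 35403, 35100 and 34532 (log2 fold 0.74, adjusted p = 0.00476). Nqo1, in contrast, was 1590, 1304 and 1360 with PBS and 1324, 1610 and 1609 with rmCIRP, and the groups overlapped (0.090 ± 0.091 log2, adjusted p = 0.472, 95% interval -0.088 to 0.27). It was 1045, 1151 and 1171 with rmTGF-β1 alone, against 1074, 1002 and 972 with both, a difference of -0.15 log2 that did not pass (adjusted p = 0.235).

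The mitochondrial enzyme gene Sod2 was 2947, 3950 and 3630 with PBS and 10182, 9282 and 10218 with rmCIRP, 2.82 times higher in the mean (log2 fold 1.49 ± 0.10, adjusted p = 1.14e-10). It was 3334, 2584 and 2881 with rmTGF-β1 alone, against 7957, 7504 and 8277 with both (log2 fold 1.43, adjusted p = 2.89e-10). The lowest library with rmCIRP stood well above the highest without it in either pair. The genes of the cytosolic and extracellular superoxide dismutases, Sod1 and Sod3, did not pass in the comparison of rmCIRP with PBS (adjusted p = 0.468 and 0.463).

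Of the regulators themselves, Nfe2l2 was 6462, 7132 and 6684 with PBS and 9575, 9387 and 10103 with rmCIRP, without overlap (log2 fold 0.51 ± 0.097, adjusted p = 0.000216). Over rmTGF-β1 alone (5937, 4871 and 5389), it rose with both proteins to 6701, 6511 and 6930 (log2 fold 0.31, adjusted p = 0.0161). That second call was lost without WT library 2 with rmTGF-β1 (log2 fold 0.24, adjusted p = 0.102). Keap1 was the steadiest member: 1168, 1157 and 1170 with PBS and 1239, 1237 and 1272 with rmCIRP. The rise of 0.096 ± 0.038 log2 passed narrowly (adjusted p = 0.0546) and did not pass without WT library 3 with PBS (0.097 log2, adjusted p = 0.1002), without WT library 3 with rmCIRP (0.096 log2, adjusted p = 0.114), when libraries were scaled by their total alone, or without a filter on low counts (adjusted p = 0.294 at the highest). The other 7 rises in this comparison held in every alternative tried.

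With rmTGF-β1 present, 7 members rose and 0 fell on adding rmCIRP, where 20.5% of all genes rose and 21.7% fell. These 7 are the genes that rose over PBS other than Keap1, which differed by 0.048 log2 (adjusted p = 0.358). The 2 comparisons share no libraries. The test of the difference between the 2 responses, an interaction term fitted for WT cells, called 0 members in edgeR (lowest adjusted p = 0.916, 0 members at an unadjusted p under 0.05), as did DESeq2. It called few genes at all, 0.0369% higher and 0.0123% lower. The interval of that difference for Slc7a11 ran from -0.33 to 0.91 log2, and for Sod2 from -0.35 to 0.22.

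**Figure D3:**
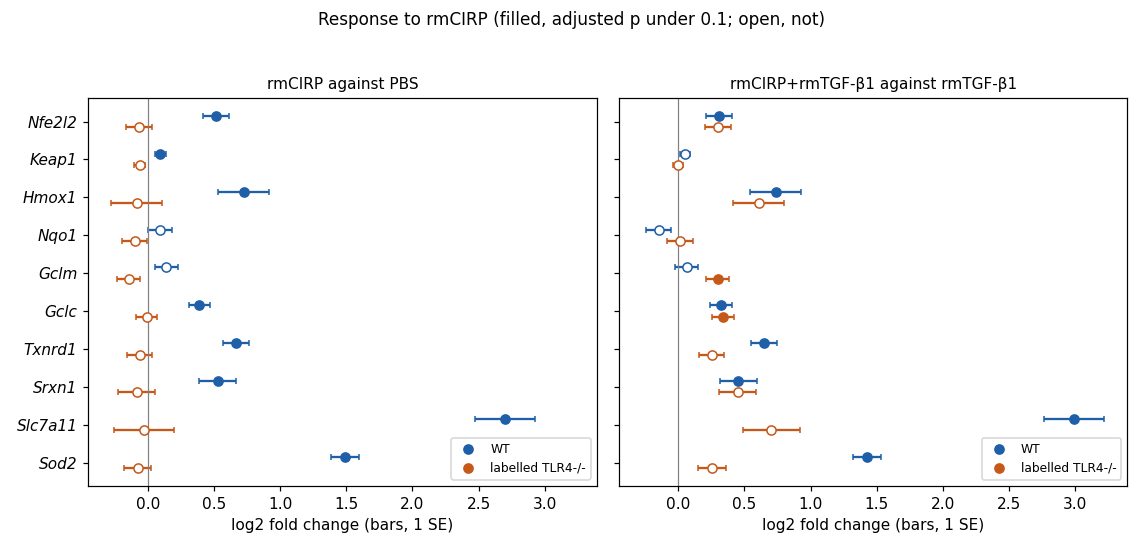
Log2 fold change of the 10 genes on rmCIRP over PBS (left) and on rmCIRP+rmTGF-β1 over rmTGF-β1 (right), with bars of 1 SE, in WT libraries (blue) and libraries labelled TLR4-/- (orange); filled points passed an adjusted p of 0.1. In WT libraries, Slc7a11 lies at 2.70 and 2.99, and in libraries labelled TLR4-/- all 10 genes lie near 0 on the left.

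rmTGF-β1 alone lowered 3 members in WT cells and raised 0, where 6.65% of all genes fell and 5.77% rose. Nqo1 fell by 0.34 log2 (adjusted p = 0.0225), from 1590, 1304 and 1360 to 1045, 1151 and 1171. Nfe2l2 fell by 0.33 log2 (adjusted p = 0.0374) and Gclc by 0.24 log2 (adjusted p = 0.0697). Txnrd1 (-0.24 log2, adjusted p = 0.135), Srxn1 (-0.34 log2, adjusted p = 0.158), Slc7a11 (-0.26 log2, adjusted p = 0.599) and Hmox1 (-0.22 log2, adjusted p = 0.555) did not pass.

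The number of falls with rmTGF-β1 was not stable over the alternatives. It was 7 when only the 6 libraries compared entered the fit, and 8 when both libraries that stand apart, which carry none of the WT values, were left out of it. Sod2 (-0.26 log2) was then among the 8 (adjusted p = 0.0435). It was 1 without WT library 2 with PBS or WT library 2 with rmTGF-β1, when the call of Nfe2l2 was lost (-0.28 log2, adjusted p = 0.159, and -0.26 log2, adjusted p = 0.195). Nqo1 was lost without WT library 1 with PBS (-0.23 log2, adjusted p = 0.172). Gclc kept its call only without WT library 1 with rmTGF-β1 (adjusted p = 0.0974).

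Adding rmTGF-β1 to rmCIRP lowered 6 members and raised 0, where 10.5% of all genes fell and 10% rose. These comparisons with rmTGF-β1 and those with rmCIRP share libraries, so that their values are not independent. Nqo1 was 1324, 1610 and 1609 with rmCIRP and 1074, 1002 and 972 with both proteins, and fell by 0.58 log2 (adjusted p = 0.000124). Nfe2l2 fell by 0.53 log2 (adjusted p = 0.000483), from 9575, 9387 and 10103 to 6701, 6511 and 6930, so that with both proteins its counts were close to those with PBS. Gclc (fell by 0.31 log2, adjusted p = 0.0104), Sod2 (fell by 0.33 log2, adjusted p = 0.0302), Srxn1 (fell by 0.41 log2, adjusted p = 0.0499) and Txnrd1 (fell by 0.26 log2, adjusted p = 0.0715) were lower as well, without overlap. Slc7a11 differed by 0.034 log2 (adjusted p = 0.942), with overlap. Nqo1, Nfe2l2 and Gclc passed whichever library was left out. Sod2 did not pass without WT library 3 with rmCIRP (adjusted p = 0.110) or WT library 2 with both proteins (adjusted p = 0.118), and Srxn1 and Txnrd1 passed in 1 of 6 such fits each, with 3 of the 6 calls left at the fewest.

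In the libraries labelled TLR4-/-, 0 members passed on rmCIRP over PBS in edgeR, and 0 had an unadjusted p under 0.05. Of all genes, 0% rose and 0% fell, 1136 had an unadjusted p under 0.05, and DESeq2 called 33 genes, 0 of them members. Slc7a11 was 989, 911 and 838 with PBS and 964, 806 and 908 with rmCIRP, fully overlapping (-0.027 ± 0.23 log2, 95% interval -0.47 to 0.42). Sod2 was 3542, 3285 and 3420 with PBS and 3178, 2941 and 3557 with rmCIRP, also overlapping (95% interval -0.28 to 0.13 log2). Nfe2l2 was 7708, 7129 and 7010 with PBS and 6817, 6603 and 7352 with rmCIRP (95% interval -0.26 to 0.12 log2). Of the 10 genes, Gclm and Srxn1 alone did not overlap between the groups, where 13.7% of all genes tested did not, and both were lower with rmCIRP, by differences that did not pass (-0.14 log2, adjusted p = 0.804, and -0.083 log2, adjusted p = 0.968).

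A direct test then set the rmCIRP response of one genotype against that of the other. Only a pool of lungs is described for each group of cells, so that this test cannot tell genotype from pool. The difference passed for 9 of the 10 members, all with a lower value in the libraries labelled TLR4-/-, where 14.3% of all genes differed in that direction and 17.1% in the other. It was -2.72 ± 0.32 log2 for Slc7a11 (adjusted p = 1.12e-06), -1.57 ± 0.15 for Sod2 (adjusted p = 3.75e-08) and -0.73 ± 0.14 for Txnrd1 (adjusted p = 0.000406). For Nfe2l2 it was -0.58 (adjusted p = 0.00322), for Hmox1 -0.81 (adjusted p = 0.0338), for Srxn1 -0.61 (adjusted p = 0.0261) and for Gclc -0.40 (adjusted p = 0.0133). For Keap1 it was -0.16 (adjusted p = 0.0373), which did not pass when libraries were scaled by their total alone (adjusted p = 0.117) or without a filter on low counts (adjusted p = 0.228). For Gclm it was -0.28 (adjusted p = 0.0986), which passed in 1 of 12 fits that left out a library. For Nqo1 it did not pass (-0.19 log2, adjusted p = 0.321). Macrophage markers moved beside this response in WT cells, with 4 of 13 higher and 9 lower on rmCIRP and a summed level of 79769 to 85058. Of 10 fibroblast markers 2 rose and 6 fell, to a summed level of 681665 to 726165 from 807075 to 866295, and all 3 epithelial markers tested fell. Their part in the result was not tested.

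The response to rmTGF-β1 in the libraries labelled TLR4-/- held 3 falls and 0 rises, where 11.7% of all genes fell and 12.1% rose. Nqo1 fell by 0.42 log2 (adjusted p = 0.00377), from 1084, 980 and 1150 to 781, 897 and 726. Nfe2l2 fell by 0.35 log2 (adjusted p = 0.0148), from 7708, 7129 and 7010 to 5318, 5909 and 5828. In both genes the groups did not overlap, and both fell in WT cells as well. Sod2 fell by 0.31 log2 (adjusted p = 0.0449), a call lost without library 1 with PBS (adjusted p = 0.126) or library 1 with rmTGF-β1 (adjusted p = 0.118). The difference between the genotypes in this response passed for 0 members in edgeR (lowest adjusted p = 0.567, 0 at an unadjusted p under 0.05), as in DESeq2 and without both libraries that stand apart, and for 0.0369% and 0.0492% of all genes in the directions up and down. Without both libraries that stand apart, 6 members fell with rmTGF-β1, with Gclc (-0.21 log2, adjusted p = 0.0017), Txnrd1 (-0.18 log2, adjusted p = 0.0042) and Srxn1 (-0.27 log2, adjusted p = 0.00335) added.

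**Figure D4:**
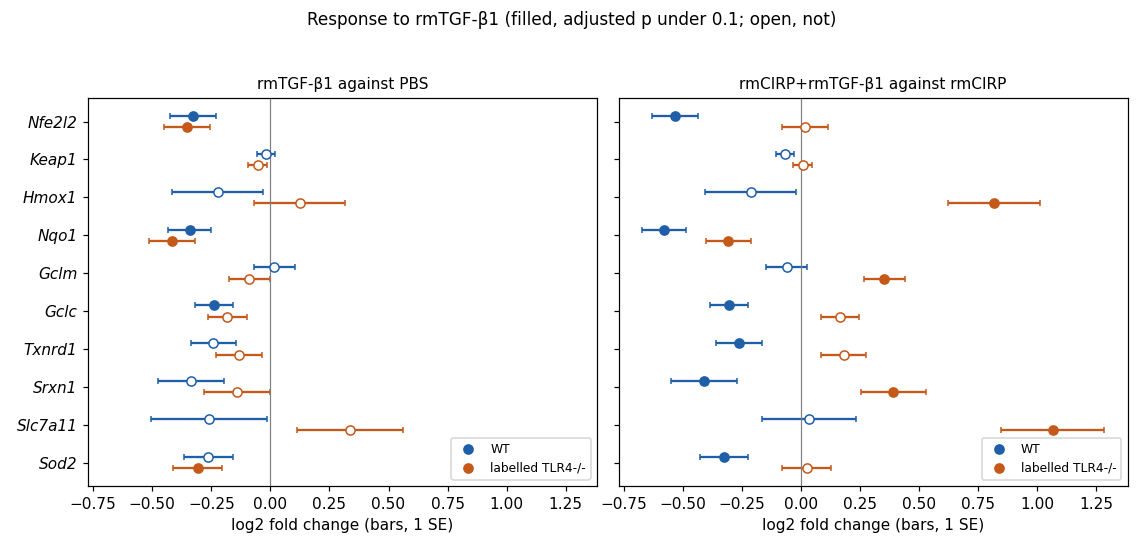
Log2 fold change of the 10 genes on rmTGF-β1 over PBS (left) and on rmCIRP+rmTGF-β1 over rmCIRP (right), with bars of 1 SE, in WT libraries (blue) and libraries labelled TLR4-/- (orange); filled points passed an adjusted p of 0.1. Nqo1 lies below 0 and passed in all 4 comparisons, from -0.31 to -0.58, and Slc7a11 and Hmox1 lie above 0 in libraries labelled TLR4-/- on the right, where library 3 with both proteins enters.

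With both proteins, the libraries labelled TLR4-/- gave a result that depended on which libraries were included, library 3 among them. Over rmTGF-β1 alone, Gclc (0.34 log2, adjusted p = 0.0726) and Gclm (0.30 log2, adjusted p = 0.0954) rose and 0 members fell, where 1.56% of all genes rose and 1.13% fell. Gclc was 1485, 1525 and 1587 with rmTGF-β1 alone, against 1688, 1751 and 2401 with both proteins, without overlap. Slc7a11 was 1017, 841 and 1571 with rmTGF-β1 alone, against 1212, 1508 and 2919 with both, and the groups overlapped (0.70 log2, adjusted p = 0.107). Without library 3 of both proteins 0 members passed, and Hmox1 went from 0.61 to 0.11 log2. The count was also 0 without library 1 or library 2 with rmTGF-β1, and it was 7 without library 3 with rmTGF-β1, and 8 or 6 without library 1 or library 2 with both proteins. Leaving out both libraries that stand apart, 3 members rose: Slc7a11 (0.54 log2, adjusted p = 0.00893), Srxn1 (0.27 log2, adjusted p = 0.0407) and Gclc (0.19 log2, adjusted p = 0.044).

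Over rmCIRP alone, 4 members rose with both proteins in the libraries labelled TLR4-/- and 1 fell, where 17.2% of all genes rose and 15.6% fell. Slc7a11 went from 964, 806 and 908 with rmCIRP to 1212, 1508 and 2919 (log2 fold 1.07, adjusted p = 0.00123), and Hmox1 from 40026, 38658 and 39167 to 45206, 52882 and 110238 (log2 fold 0.82, adjusted p = 0.00363). Gclm rose by 0.35 log2 (adjusted p = 0.00471) and Srxn1 by 0.39 log2 (adjusted p = 0.042, with overlap), and Nqo1 fell by 0.31 log2 (adjusted p = 0.0215). Without both libraries that stand apart, Slc7a11 rose by 0.61 log2 (adjusted p = 1.88e-05), Hmox1 by 0.32 log2 (adjusted p = 0.00337) and Gclm by 0.17 log2 (adjusted p = 0.0189), while Srxn1 did not pass (0.079 log2, adjusted p = 0.412) and Nfe2l2 fell (-0.18 log2, adjusted p = 0.0482). Without library 2 with rmCIRP, 3 members passed, and Nqo1 (adjusted p = 0.14) and Srxn1 (adjusted p = 0.104) did not. In a fit of only the 6 libraries compared, 2 members passed.

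With PBS alone, the libraries labelled TLR4-/- differed from WT in 5 of the 10 genes: 4 were higher and 1 lower, where 23.2% of all genes were higher and 24% lower. Of the 16258 genes tested, 7665 differed, so that the share of members that differed was near that of all genes. Hmox1 was 26068, 22873 and 24250 in WT and 39341, 40934 and 45072 in libraries labelled TLR4-/-, without overlap (0.77 log2, adjusted p = 0.00269). Gclm was 3987, 3726 and 4046 against 4857, 5242 and 5561 (0.41 log2, adjusted p = 0.000608). Nqo1 was lower, at 1084, 980 and 1150 against 1590, 1304 and 1360 (-0.41 log2, adjusted p = 0.00111). These 3 held whichever library was left out.

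Slc7a11 (0.53 log2, adjusted p = 0.0761) and Srxn1 (0.31 log2, adjusted p = 0.0865) were higher too. Srxn1 did not pass in any of the 6 fits that left out a library (adjusted p from 0.125 to 0.173) or in DESeq2 (adjusted p = 0.142), and Slc7a11 passed in 1 of them (0.61 log2 without library 3 labelled TLR4-/-, adjusted p = 0.0839). The count was 7 without both libraries that stand apart, and 8 in a fit of only the 6 libraries compared. Macrophage markers moved with the genotype, 3.71 times higher in their summed level, and epithelial markers were 326 to 346 against 70.8 to 115 normalized counts in sum. Their part in the result was not tested. Only a pool of lungs is described for each group of cells, so that the genotype and the pool cannot be told apart.

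The rest of the antioxidant system was described by 64 genes in 8 lists, of which all were tested. In WT cells 25 rose and 15 fell with rmCIRP over PBS, with a median change of 0.068 log2, where 19.8% of all genes rose and 24.1% fell, so that the share of falls was near that of all genes. Of 8 partners and regulators of NRF2, 7 rose and 0 fell. They included Sqstm1, which encodes the autophagy receptor p62 that binds KEAP1 (0.42 log2, adjusted p = 0.000663), Bach1, which encodes a repressor that competes with NRF2 (0.30 log2, adjusted p = 0.00582), and the small MAF genes Maff (0.16 log2, adjusted p = 0.0113), Mafg (0.26 log2, adjusted p = 0.00114) and Mafk (0.17 log2, adjusted p = 0.0256). Of 14 genes of glutathione synthesis and use, 4 rose and 5 fell. Glrx, the gene of glutaredoxin, rose by 0.90 log2 (adjusted p = 4.66e-07) and Gsr, that of glutathione reductase, by 0.64 log2 (adjusted p = 6.64e-07), while Mgst3 fell by 0.54 log2 (adjusted p = 0.000187) and the peroxidase gene Gpx1 by 0.36 log2 (adjusted p = 5.71e-05). Of 12 thioredoxin and peroxiredoxin genes, 5 rose and 2 fell, among them the peroxiredoxin gene Prdx6 (0.56 log2, adjusted p = 2.88e-11), and Txnip, whose product inhibits thioredoxin, fell by 0.32 log2 (adjusted p = 9.72e-07).

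Of 6 genes of NADPH-generating enzymes, 1 rose and 2 fell with rmCIRP in WT cells, with Idh1 falling by 0.59 log2 (adjusted p = 3.46e-09). Of 8 genes of heme and iron handling, 1 rose and 3 fell. Fth1, the ferritin heavy chain gene, rose by 0.36 log2 (adjusted p = 0.000411) and Slc40a1, that of the iron exporter ferroportin, fell by 0.80 log2 (adjusted p = 6.84e-05). Of 6 NADPH oxidase genes, 4 rose and 1 fell: Cybb, the catalytic subunit of the phagocyte oxidase, rose by 1.40 log2 (adjusted p = 2.30e-13), from 2190, 2371 and 2436 to 6252, 5927 and 6411, and Nox4 fell by 0.41 log2 (adjusted p = 0.0370). Of 7 detoxification genes, 3 rose and 2 fell, with the exporter genes Abcc4 (1.17 log2, adjusted p = 1.33e-06) and Abcc1 (0.54 log2, adjusted p = 5.14e-07) among the rises. Of the 3 further genes for superoxide and peroxide removal, 0 passed.

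Of the same 64 genes, 3 rose and 10 fell with rmTGF-β1 in WT cells (median -0.060 log2), where 5.77% of all genes rose and 6.65% fell, and 0 passed with rmCIRP in the libraries labelled TLR4-/-. Nox4, a gene raised by TGF-β1 in many fibroblasts, rose with rmTGF-β1 by 0.78 log2 in WT libraries (adjusted p = 0.00118) and by 0.83 log2 in libraries labelled TLR4-/- (adjusted p = 0.000307). In the libraries labelled TLR4-/- with PBS, 34 of the 64 were higher than in WT and 8 lower (median 0.12 log2), where 23.2% of all genes were higher and 24% lower. All 13 macrophage markers were higher there as well, with a median of 2.19 log2, and their part in these counts was not tested. The highest were Ncf1 (2.29 log2), Slc40a1 (2.21 log2) and Ncf4 (2.08 log2), of which Ncf1 and Ncf4 encode subunits of the phagocyte oxidase, and Sod3 was the lowest (-1.28 log2, adjusted p = 1.56e-10). The genotypes differed in their rmCIRP response for 35 of the 64, with 24 lower and 11 higher in the libraries labelled TLR4-/-, where 14.3% of all genes were lower and 17.1% higher, so that the share of higher genes was near that of all genes. Among them were Cybb (-1.44 log2) and Abcc4 (-1.27 log2).

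**Figure D5:**
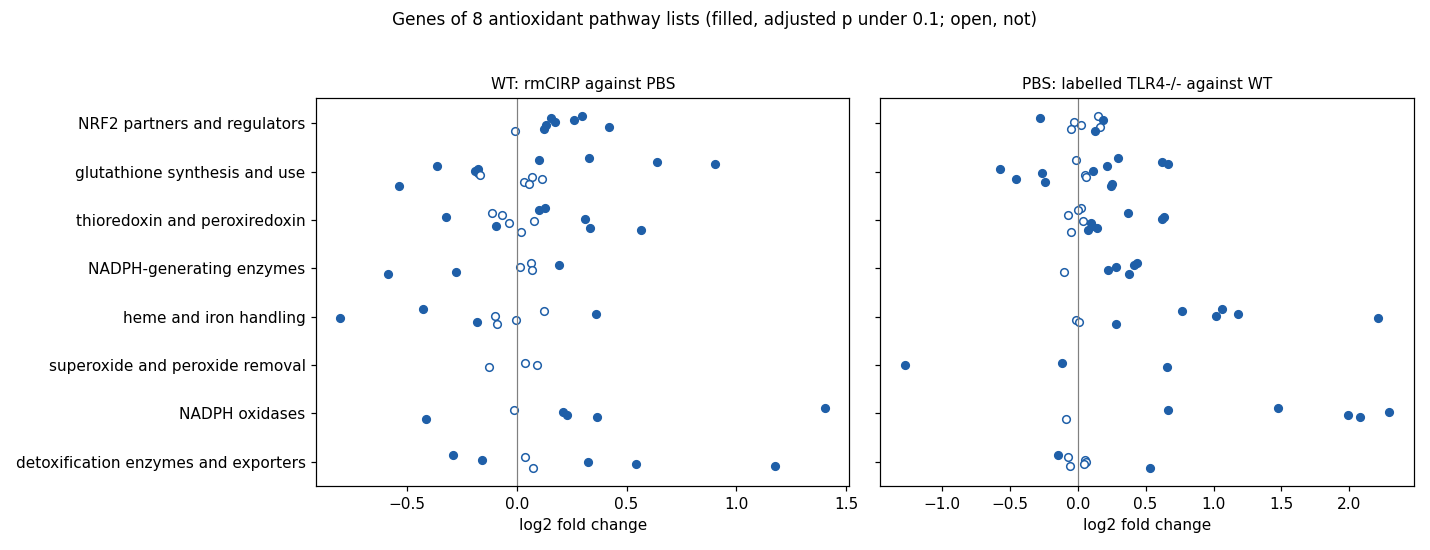
Log2 fold change (x axis) of each of the 64 genes of 8 antioxidant lists on rmCIRP over PBS in WT libraries (left) and in libraries labelled TLR4-/- over WT libraries with PBS (right); each point is a gene, filled where it passed an adjusted p of 0.1. On the left 7 of 8 partners and regulators of NRF2 lie above 0 and passed, and on the right 5 of 6 NADPH oxidase genes do.

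Across the 8 conditions the members differed in both level and pattern. Per kb of annotated exon (GENCODE M21), Hmox1 had by far the highest level in WT libraries with PBS, 13933 normalized counts per kb, and Slc7a11 the lowest, 45.2. Txnrd1 (1919), Nfe2l2 (1781) and Srxn1 (1254) lay between, followed by Nqo1 (913), Gclm (623), Gclc (500.1), Sod2 (351) and Keap1 (248). The highest mean of a condition exceeded the lowest 7.99 times for Slc7a11, 3.60 times for Sod2, 3.31 times for Hmox1 and 1.11 times for Keap1. Without both libraries that stand apart, the ratio was 2.34 for Hmox1, 3.63 for Sod2 and the same for Slc7a11. Slc7a11, Sod2, Txnrd1, Gclc, Nfe2l2, Nqo1 and Keap1 had their highest mean in WT libraries with rmCIRP, or for Slc7a11 with both proteins. Hmox1, Gclm and Srxn1 had theirs in the libraries labelled TLR4-/- with both proteins, the condition of the library that stands apart. Without both such libraries, Hmox1 and Gclm kept that condition as their highest, at 49044 and 5310.4 normalized counts, and Srxn1 had its highest mean in WT libraries with rmCIRP, at 5120.1. For Slc7a11 the order from the lowest was WT with rmTGF-β1, WT with PBS, then the libraries labelled TLR4-/- with rmCIRP, PBS, rmTGF-β1 and both, then WT with rmCIRP and with both. Its neighbours in that order that overlapped were rmCIRP, PBS, rmTGF-β1 and both in the libraries labelled TLR4-/-, and WT with rmCIRP and with both.

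Over the 8 condition means, a description in which the points share libraries with the comparisons, the members fell into patterns of their own. Hmox1 and Gclm varied together (Pearson r = 0.908), as did Txnrd1 and Slc7a11 (r = 0.927) and Nfe2l2 and Gclc (r = 0.894), while Hmox1 and Sod2 did not (r = 0.033). Without both libraries that stand apart these were 0.852, 0.917, 0.899 and 0.119, in that order. Of 12310 genes searched, those most like Sod2 were Nfkbia (r = 0.998) and the chemokine gene Ccl2 (r = 0.997), and those most like Slc7a11 were Tnfaip3 (r = 0.991) and Tnfrsf1b (r = 0.990). Those most like Txnrd1 were Tnfaip2 (r = 0.986) and Tank (r = 0.984), and those most like Nqo1 were Bmp4 (r = 0.991) and Sox13 (r = 0.986). Nfe2l2 was most like Wdr20 (r = 0.986) and Esd (r = 0.976), and the third was the exporter gene Abcc1 (r = 0.965). Hmox1 was most like Wincr1 (r = 0.997) and Gpcpd1 (r = 0.994), and Gclm most like Fbxo33 (r = 0.994) and Sft2d1 (r = 0.984). For Gclc they were Gm49774 (r = 0.993) and Crem (r = 0.987), for Srxn1 Ipmk (r = 0.978) and Spred1 (r = 0.968), and for Keap1 Psmb1 (r = 0.976) and Ifnar2 (r = 0.972). With 8 points and 12310 genes searched, every member had a gene at r above 0.9755, so that a high r alone says little. Without library 3 labelled TLR4-/- with both proteins, r was 0.972 for Wdr20 and 0.995 for Tnfaip3.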

How the data were processed

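The authors used STAR2 for alignment against mouse GENCODE, and the deposited values are raw ht-seq counts per gene. The submitters' processing notes name the build NCBIM37 and FastQC, and the strand option of the counting is not given in the sources used here. The 5 tally lines of each file (14.5% to 16.1% of its total) were left out. Counts were tested in R 4.3.3 with edgeR 4.0.16: filterByExpr, TMM, 1 mean for each of the 8 conditions over all 24 libraries, then the quasi-likelihood test, with p-values adjusted by Benjamini-Hochberg over 16258 genes, with a threshold of 0.1, as in the study. DESeq2 1.42.0 was an alternative and gave the size factors for normalized counts. The members and lists were chosen with earlier results of these data known. All members are named, and of the lists those with the largest changes and 50 or more mean normalized counts, plus others of known role chosen after their values were seen. In GENCODE M21, Keap1, Gclm, Txnrd1 and Slc7a11 overlap genes on the opposite strand, and Nfe2l2, Gclm, Txnrd1 and Slc7a11 others on the same strand, whose reads may not be separated. No pair of replicates was as alike as sampling noise alone would make it.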

Additional observations from a re-analysis of the deposited data

Results flagged for a closer look

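The response to rmCIRP differed between the genotypes for 9 members by the test of the difference itself in edgeR. The change in the libraries labelled TLR4-/- minus that in WT libraries was -2.72 log2 for Slc7a11, -1.57 for Sod2, -0.81 for Hmox1, -0.73 for Txnrd1, -0.61 for Srxn1, -0.58 for Nfe2l2, -0.40 for Gclc, -0.28 for Gclm and -0.16 for Keap1. Each of these is the difference of a rise or a value above 0 in WT libraries and a value below 0 that did not pass in the libraries labelled TLR4-/-. Gclm passed in 1 of 12 fits that left out a library. By library size alone neither Gclm nor Keap1 passed, nor did Keap1 without a low-count filter. Genotype and pool of lungs cannot be told apart in these differences. With 3 libraries per condition, single libraries were not tested as outliers.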

How the results depend on the processing

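Of 48 member results past the threshold, 39 kept call and direction in every planned setting with all libraries, 32 did so in every fit without 1 library, and 0 reversed. With library 3 labelled TLR4-/- left out both for rmTGF-β1 and for both proteins (chosen after seeing the data), the counts that moved were 8 members and 3216 genes for rmTGF-β1 over PBS in WT (3 and 2019 with all libraries), 6 members for the same in libraries labelled TLR4-/-, 16 genes for rmCIRP in them, 190 genes for the genotype difference in the rmTGF-β1 response and 92 for the WT interaction. Members for rmTGF-β1 in WT numbered 5 by library size alone, 8 without a low-count filter, 5 with the replicate block and 7 with only the libraries compared. For both proteins over rmTGF-β1 in libraries labelled TLR4-/-, members numbered 4, 8, 6 and 0 in these settings and 6 in DESeq2, and genes 1580 without the filter, 810 with the block, 0 with only the libraries compared and 902 in DESeq2 (437 in the main test). Genes for rmCIRP in them were 149 without the filter, 1 with the block, 29 with only the libraries compared and 33 in DESeq2. Without the filter, members were 7 for rmTGF-β1 in them and 2 for the genotype difference in that response, whose genes numbered 563, 23 with a mean count filter, 22 with the block and 163 in DESeq2 (14 in the main test). The WT interaction had 198 genes without the filter, 125 with only the libraries compared and 37 in DESeq2 (8 in the main test). With only the libraries compared, both proteins over rmCIRP gave 2 members and 2710 genes (5329 in the main test), and genotype with PBS 8 members. The cause of these shifts was not tested.

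Replicate numbers shared by the labels were not taken as pairs: the mean correlation of deviations was 0.012, and only for both proteins over rmTGF-β1 in libraries labelled TLR4-/- did it average 0.205. The replicate block moved the counts above and no other by over 1.5 times.

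Without 1 library, members ranged from 1 to 4 for rmTGF-β1 in WT, 3 to 6 for both proteins over rmCIRP in WT, 3 to 4 for genotype with PBS, 3 to 7 for both proteins over rmCIRP and 0 to 8 for both over rmTGF-β1 in libraries labelled TLR4-/-. Genes ranged from 1029 to 1690 for rmTGF-β1 in WT, from 2517 to 3783 for it and 0 to 9 for rmCIRP in libraries labelled TLR4-/-, 0 to 2674 for both over rmTGF-β1, 0 to 119 for the genotype difference in the rmTGF-β1 response and 2 to 7 for the interaction.

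The changes of sign were in values that had not passed. For Keap1 in libraries labelled TLR4-/- they were, for both proteins over rmTGF-β1, 0.0038 log2 with RLE scaling, 0.0091 by library size alone, 0.0017 without the filter, 0.0045 with the mean count filter and 0.0033 in DESeq2, and over rmCIRP -0.0071 by library size alone, -0.0033 without the filter and -0.0084 with both libraries 3 left out. Gclm for rmTGF-β1 in WT was -0.0016 by library size alone, and Hmox1 in the interaction -0.0012 with only the libraries compared. With both libraries 3 left out, Nqo1 was -0.14 for both proteins over rmTGF-β1, and over rmCIRP Nfe2l2 was -0.18, Gclc -0.012, Txnrd1 -0.041 and Sod2 -0.10.

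Without 1 library, for both proteins over rmCIRP in libraries labelled TLR4-/-, Nfe2l2 ranged from -0.18 to 0.12 log2, Keap1 from -0.020 to 0.033, Gclc from -0.011 to 0.26, Txnrd1 from -0.039 to 0.31 and Sod2 from -0.10 to 0.13. Over rmTGF-β1, Keap1 ranged from -0.022 to 0.030 and Nqo1 from -0.067 to 0.097. For rmCIRP over PBS in them, Gclc ranged from -0.033 to 0.023 and Slc7a11 from -0.092 to 0.034. Gclm for rmTGF-β1 in WT ranged from -0.025 to 0.048, Slc7a11 for both proteins over rmCIRP in WT from -0.0012 to 0.069, and Sod2 for genotype with PBS from -0.13 to 0.066. For the genotype difference in the rmTGF-β1 response, Nfe2l2 ranged from -0.089 to 0.055 and Sod2 from -0.15 to 0.061. In the interaction, Hmox1 ranged from -0.069 to 0.079, Txnrd1 from -0.046 to 0.017 and Sod2 from -0.16 to 0.042.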
